A study of Mus musculus with 4 samples.

Results

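The mitochondrially encoded genes of the mouse were followed in RNA sequencing of Leydig cells, the androgen-producing cells between the seminiferous tubules of the testis. They were taken as every gene in the deposited tables whose mouse symbol starts with mt-. The rule found 15 genes among the 27357 listed, namely 12 protein genes, 2 rRNA genes and 1 tRNA gene. GENCODE release M21 annotates 37 such genes, and the other 22, which are mt-Atp8 and 21 tRNA genes, were not analysed here.

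Mitochondria carry a small circular genome that is transcribed from both strands into long precursors, which are cut at the tRNA genes into mRNAs, rRNAs and tRNAs. Its proteins are membrane-bound core subunits of respiratory complexes I, III and IV and of ATP synthase (complex V), while all subunits of complex II and the remaining subunits of the others come from nuclear genes. In Leydig cells mitochondria also house the first step of steroid synthesis, in which cholesterol is cleaved to pregnenolone by an enzyme that draws its electrons from mitochondrial NADPH.

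The mice were male. They carried a knockout of C2orf74 (KO, 2 libraries) or were wild type (WT, 2 libraries), and mice of both genotypes received high-fat food from 8 weeks of age for 12 weeks. Leydig cells were then isolated from the testis and their total RNA was sequenced. All coordinates of the genes are those of GRCm38, on the plus strand unless said. How the knockout was made, in which cells it acts, and whether a library holds 1 animal or a pool were not given in the sources used here, so p-values measure the spread between libraries, which may be technical. Read totals, worked out from the deposited values, were 15694389 and 19764004 in KO and 13847807 and 15817093 in WT. The targeted gene, annotated in the mouse as 1700093K21Rik, gave 0 reads in both KO libraries and 0 and 4 reads in the WT libraries, so it could not check the labels at this depth. The Leydig cell genes Cyp11a1 (360 and 300 RPKM in KO, 415 and 402 RPKM in WT) and Hsd3b1 (410 and 449 RPKM in KO, 323 and 261 RPKM in WT) were high in all libraries, whereas Cyp17a1 was at 2.12 and 1.47 RPKM in KO and 0.900 and 1.90 RPKM in WT. Insl3, another Leydig cell gene, had 73.0 and 81.5 RPKM in KO and 163.8 and 132.8 RPKM in WT. Of the 8 Leydig cell markers listed, both KO libraries lay above both WT libraries for 3, where 19.7% of all genes tested did. They lay below them for 2, where 25.0% did, and 0 markers had a limma adjusted p under 0.05. RPKM is the number of reads per kilobase of exon, scaled to the total of the library, so levels are corrected for gene length. Reads that match copies elsewhere in the genome, described below, can still limit comparisons between genes.

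The sequences of the members set limits on how well their RNA can be counted, because the nuclear genome holds copies of mitochondrial DNA. Aligned to all annotated transcripts (BLAST, at least 85% identity over at least 100 bases), 12 of the 15 genes matched a nuclear copy. The closest copies lay side by side on chromosome 1, where 7 pseudogenes on the minus strand span chr1:24611535-24616197 (GRCm38). For 5 genes, mt-Co2, mt-Atp6, mt-Co3, mt-Nd3 and mt-Nd4l, a chromosome 1 copy matched over 90% of the gene's length at 99.7% to 100% identity. The copy of mt-Nd4 (Gm28439) was identical over 876 bases of its 1378, and the copy of mt-Co1 (Gm29216) differed at 1 of 483 bases. No chromosome 1 copy was found for mt-Nd1, mt-Nd2, mt-Nd5, mt-Nd6, mt-Cytb, the rRNA genes or mt-Tp. Capitals mark the bases at which gene and copy differ. The first 60 bases of mt-Co3 (chrM:8607-8666, plus strand) and of its copy Gm28437 (chr1:24613912-24613971, minus strand) show a pair with no difference:
mt-Co3: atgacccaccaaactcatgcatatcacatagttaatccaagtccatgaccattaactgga
Gm28437: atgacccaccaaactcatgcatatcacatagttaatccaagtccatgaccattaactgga
The start of mt-Nd3 (chrM:9459-9518, plus strand) holds the only difference from Gm28438 (chr1:24613060-24613119, minus strand), which is T3C, counted from 1 at the first base of the gene:
mt-Nd3: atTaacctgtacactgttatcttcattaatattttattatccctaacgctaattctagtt
Gm28438: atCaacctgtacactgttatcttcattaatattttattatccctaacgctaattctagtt
A more distant copy is shown for contrast, that of mt-Cytb (chrM:14146-14205, plus strand) in Gm11410 (chr4:80003990-80004049, plus strand), which differs at 81 of 1142 bases and at 3 of the 60 printed:
mt-Cytb: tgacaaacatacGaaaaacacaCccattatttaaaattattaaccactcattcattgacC
Gm11410: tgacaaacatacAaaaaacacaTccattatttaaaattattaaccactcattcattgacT
The tRNA for proline is the 1 tRNA with values and is printed whole (chrM:15356-15422, minus strand):
mt-Tp: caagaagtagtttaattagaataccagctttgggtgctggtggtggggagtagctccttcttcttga
All sequences are those of the GENCODE M21 transcripts. The submitters name the build mm9, for which no sequence was used here.

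The levels of the 12 protein genes split by this feature. The 5 genes with a full-length chromosome 1 copy lay between 0.366 and 60.5 RPKM in all 4 libraries, and the other 7 between 643 and 14566 RPKM. The split was seen with the values in view and is a description of the levels. Neighbouring genes of 1 strand fell on both sides of it, since mt-Co1 and mt-Nd4 flank the 5 genes on the mitochondrial genome.

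**Figure D1:**
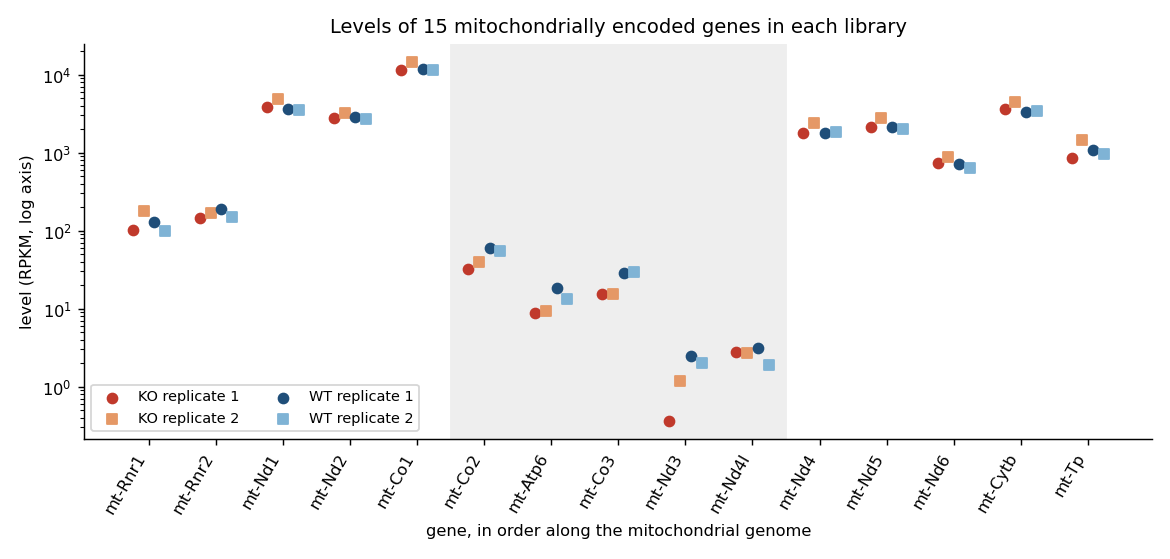
RPKM (log axis) of each of the 15 genes in KO and WT libraries, 1 point per library, in the order of the genes along the mitochondrial genome; the grey band marks the 5 genes with a chromosome 1 copy over more than 90% of their length. The genes in the band lie between 0.366 and 60.5 RPKM, and the protein genes outside it between 643 and 14566 RPKM.

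Complex IV passes electrons to oxygen, and its catalytic core subunit mt-Co1 (ENSMUSG00000064351, chrM:5328-6872) had the highest value of all listed genes in every library. It stood at 11368 and 14566 RPKM in KO and at 11786 and 11431 RPKM in WT. It took 49.7% and 49.8% of the mitochondrial reads in KO libraries and 50.9% and 50.7% in WT libraries. Its partner mt-Co2 (ENSMUSG00000064354, chrM:7013-7696), which holds the first copper site, stood at 32.2 and 39.3 RPKM in KO and at 60.5 and 54.0 RPKM in WT. The third core subunit, mt-Co3 (ENSMUSG00000064358, chrM:8607-9390), stood at 15.3 and 15.4 RPKM in KO and at 28.3 and 29.4 RPKM in WT. For both, the KO libraries lay below the WT libraries, while for mt-Co1 KO replicate 2 was above the other 3 libraries and KO replicate 1 below them.

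Complex I takes electrons from NADH, and the genome encodes 7 of its membrane subunits. Of these, mt-Nd1 (ENSMUSG00000064341, chrM:2751-3707), which sits where ubiquinone enters the complex, was highest, at 3795 and 4894 RPKM in KO and 3627 and 3539 RPKM in WT. The proton-channel subunits mt-Nd2 (chrM:3914-4951), mt-Nd4 (chrM:10167-11544) and mt-Nd5 (chrM:11742-13565) followed. Per library, mt-Nd2 had 2796 and 3254 RPKM in KO and 2837 and 2738 RPKM in WT. For mt-Nd5 the values were 2116 and 2810.1 RPKM in KO and 2133 and 2030.4 RPKM in WT. In mt-Nd1, mt-Nd2 and mt-Nd5 KO replicate 2 was the highest library and KO replicate 1 lay close to the WT mean, at most 0.08 above it on the log2 scale. mt-Nd4 had 1784 and 2415 RPKM in KO and 1799 and 1819 RPKM in WT. All of its reads divided by the 502 bases outside the chromosome 1 copy would give 4897 and 6630.1 RPKM in KO and 4937 and 4993 RPKM in WT, a change of scale that leaves KO against WT as it is.

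The only protein gene read from the other strand, mt-Nd6 (chrM:13552-14070, minus strand), encodes another membrane subunit of complex I. It had 742 and 892 RPKM in KO and 719.9 and 643 RPKM in WT, so both KO libraries lay above both WT libraries. It overlaps mt-Nd5 by 14 bases, and whether reads were counted by strand was not given in the sources used here, so RNA of mt-Nd6 and RNA antisense to it cannot be told apart.

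The small complex I subunits mt-Nd3 (ENSMUSG00000064360, chrM:9459-9806) and mt-Nd4l (ENSMUSG00000065947, chrM:9877-10173) were the lowest members. mt-Nd3 had 0.366 and 1.16 RPKM in KO, from 2 and 8 reads, and 2.49 and 2.00 RPKM in WT, from 12 and 11 reads. The 2 reads of KO replicate 1 allow 0.0443 to 1.32 RPKM (exact 95% Poisson interval, counting error only). mt-Nd4l had 2.79 and 2.73 RPKM in KO, from 13 and 16 reads, and 3.16 and 1.92 RPKM in WT, from 13 and 9 reads, and its groups overlapped.

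Complexes III and V each have 1 mitochondrial gene with values. Cytochrome b, mt-Cytb (ENSMUSG00000064370, chrM:14145-15288), which carries electrons through complex III, had 3599.8 and 4457 RPKM in KO and 3332 and 3420.4 RPKM in WT, with both KO libraries above both WT libraries. The proton-channel subunit of ATP synthase, mt-Atp6 (ENSMUSG00000064357, chrM:7927-8607), had 8.80 and 9.29 RPKM in KO and 18.3 and 13.1 RPKM in WT, with both KO libraries below both WT libraries. It overlaps mt-Co3 by 1 base.

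By mean level the members ran mt-Co1, mt-Nd1, mt-Cytb, mt-Nd2, mt-Nd5, mt-Nd4, mt-Tp, mt-Nd6, mt-Rnr2, mt-Rnr1, mt-Co2, mt-Co3, mt-Atp6, mt-Nd4l and mt-Nd3. Each neighbouring pair stood in this order in all 4 libraries, except mt-Rnr2 with mt-Rnr1 and mt-Nd4l with mt-Nd3, which did so in 3. The ranges over libraries of neighbours were apart at 7 of the 14 steps, and overlapped for mt-Nd1 with mt-Cytb, mt-Nd2 with mt-Nd5, mt-Nd5 with mt-Nd4, mt-Tp with mt-Nd6, mt-Rnr2 with mt-Rnr1, mt-Co3 with mt-Atp6 and mt-Nd4l with mt-Nd3.

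**Figure D2:**
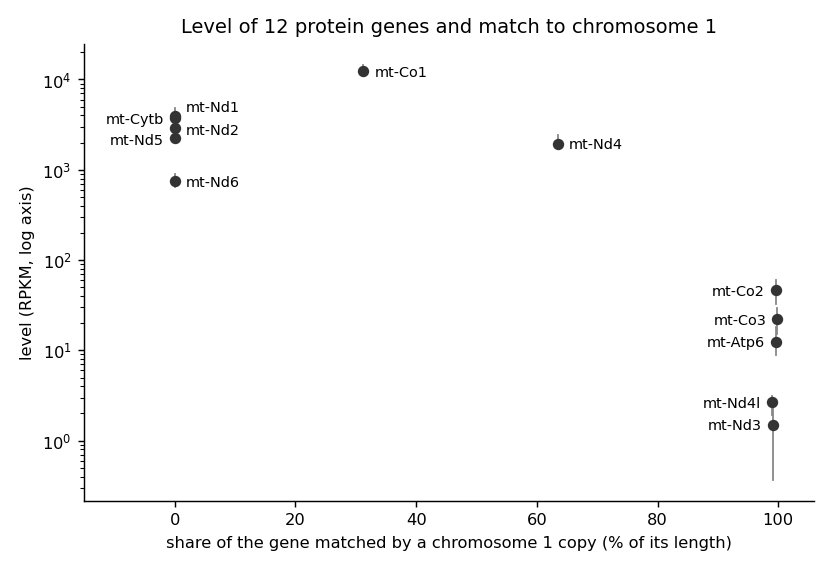
RPKM (log axis, mean of 4 libraries as points, lowest to highest library as lines) of the 12 protein genes against the share of each gene's length matched by a chromosome 1 copy, in percent. The 5 genes matched over more than 90% lie at the bottom right, and mt-Nd4, matched over 63.6%, and mt-Co1, matched over 31.3%, lie with the genes without such a copy.

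Set against WT, the KO libraries had lower values for mt-Co2, mt-Atp6, mt-Co3 and mt-Nd3 and higher mean values for the other 7 protein genes and mt-Nd4l, and none of these differences passed the test. By mean, 10 of 15 members lay higher in KO, where 46.2% of all genes did. Of the 15 members, 0 had a limma adjusted p under 0.05, where 0% of all 12391 genes tested did. At an unadjusted p under 0.05, 4 members were lower, against 7.42% of all genes, and 0 were higher, against 4.33% (under quantile normalization 749 genes were lower and 662 higher, in place of 919 and 536). Both KO libraries lay below both WT libraries for 4 members, where 25.0% of all genes did, and above them for 3 members, where 19.7% did. The median log2 change of the members was 0.13, and that of all genes tested was -0.02. All log2 changes are of log2(RPKM + 1), on which scale low genes appear less changed than they are.

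mt-Co3 showed the smallest spread beside its difference. It averaged 15.4 ± 0.103 RPKM in KO and 28.9 ± 0.818 RPKM in WT (SD, n = 2 each). Its log2 change was -0.87 ± 0.08 (SE; limma adjusted p = 0.124). The log2 change of mt-Co2 was -0.67 ± 0.13 (limma adjusted p = 0.204), that of mt-Atp6 -0.72 ± 0.16 (limma adjusted p = 0.269) and that of mt-Nd3 -0.91 ± 0.26 (limma adjusted p = 0.324). In fits without KO replicate 1 or without KO replicate 2, whose spread comes from the WT pair, mt-Co3 had limma adjusted p-values of 0.0224 and 0.0345, and mt-Co2 had 0.0385 without KO replicate 2; over all alternatives they ran from 0.0224 to 0.457 for mt-Co3 and from 0.0385 to 0.862 for mt-Co2. The value of mt-Nd3 depends on few reads, since it was -0.58 without KO replicate 1 and -1.60 with a pseudocount of 0.1.

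The 7 other protein genes had log2 changes between 0.11 for mt-Nd2 and 0.27 for mt-Nd1, with a median of 0.23, and limma adjusted p-values between 0.571 and 0.865. Their 95% intervals all held 0, from -0.56 to 0.86 for mt-Co1 and from -0.13 to 0.65 for mt-Nd6. KO replicate 2 carried these differences. Without it the 7 changes lay between -0.03 and 0.12, and without KO replicate 1 between 0.22 and 0.45. Under quantile normalization they lay between 0 and 0.16. That method gives equal ranks equal values, and mt-Co1 and mt-Nd2 ranked 1 and 6 in every library. Their change of 0 there was fixed in advance, so this range cannot gauge how stable the changes are. The 4 genes that were lower in KO kept their sign in each of these fits, and relative to the WT mean mt-Co3 stood at -0.87 on the log2 scale in KO replicate 1 and at -0.86 in KO replicate 2.

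**Figure D3:**
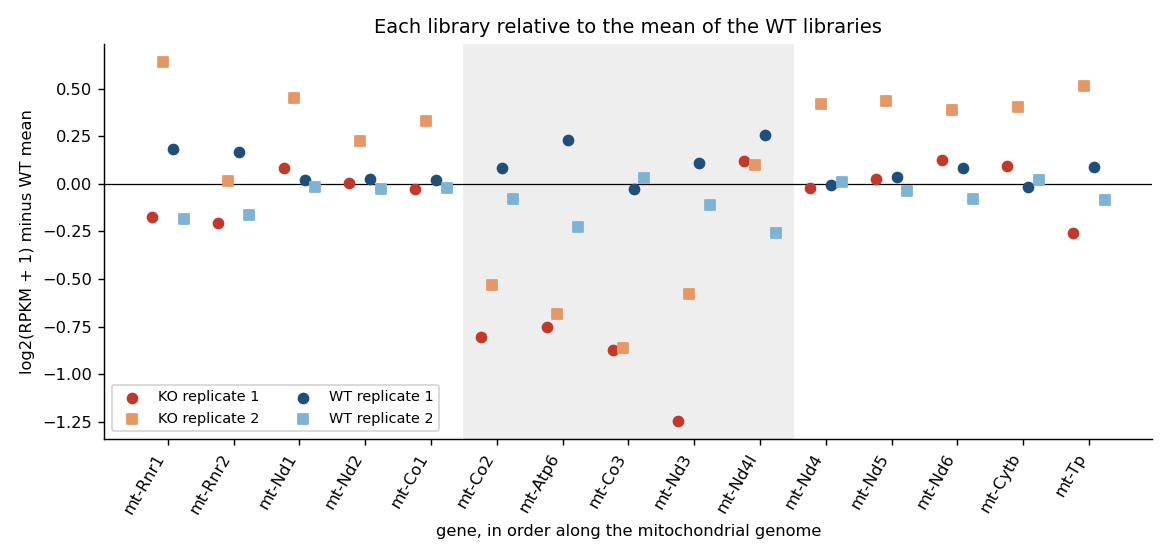
Difference of log2(RPKM + 1) from the mean of the 2 WT libraries, 1 point per library, for KO and WT libraries and the 15 genes in genome order; the grey band marks the 5 genes with a full-length chromosome 1 copy. Outside the band KO replicate 2 lies above 0 for every gene and KO replicate 1 close to 0 for the protein genes, while within it both KO libraries lie below 0 except for mt-Nd4l.

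The 7 chromosome 1 copies had values of their own. By mean 6 of them lay lower in KO, where 53.8% of all genes tested did. Gm10222 rests on 13 to 20 reads per library and Gm28438 on 8 to 45. Of the copies of the 4 lower genes, those of mt-Co3 and mt-Co2 also separated the groups. Gm28437, the copy of mt-Co3, had 16.4 and 18.1 RPKM in KO and 26.7 and 27.0 RPKM in WT (log2 change -0.61 ± 0.09, limma adjusted p = 0.154). Gm28661, the copy of mt-Co2, had 18.2 and 20.4 RPKM in KO and 28.7 and 31.4 RPKM in WT (log2 change -0.61 ± 0.10, limma adjusted p = 0.17). Gm29216, the copy of the end of mt-Co1, had 11.7 and 13.1 RPKM in KO and 19.5 and 20.2 RPKM in WT (log2 change -0.64 ± 0.09, limma adjusted p = 0.154). In these 3 of the 7 copies both KO libraries lay below both WT libraries, where 25.0% of all genes tested did, while mt-Co1 itself did not separate the groups. The copies of mt-Atp6 (Gm10925, 34.4 and 45.7 RPKM in KO, 66.8 and 44.6 RPKM in WT), of mt-Nd4 (Gm28439) and of mt-Nd4l (Gm10222) overlapped between genotypes. Gm28438, the copy of mt-Nd3, had 1.48 and 6.60 RPKM in KO and 2.72 and 1.47 RPKM in WT, with KO replicate 2 highest. Of the 7 copies 0 passed the test, and their median log2 change was -0.45.

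The reads of each pair were divided between gene and copy. mt-Co3 held 48.3% and 46.1% of the reads of its pair in KO and 51.4% and 52.2% in WT. mt-Atp6 held 20.4% and 17.0% in KO and 21.6% and 22.8% in WT. In both pairs the share of the gene was lower in both KO libraries than in both WT libraries. For mt-Co2 the shares overlapped, at 64.0% and 66.0% in KO and 67.9% and 63.3% in WT. With few reads, mt-Nd3 held 20% and 15.1% in KO and 48.0% and 57.9% in WT, again lower in both KO libraries, and mt-Nd4l ranged from 33.3% to 55.2% with overlap. Per library the pair of mt-Co3 held 389 to 699 reads and that of mt-Atp6 460 to 800. The differences in share were not tested, and their counting error was not worked out. Summed with the copy, mt-Co3 stood at 31.6 and 33.5 RPKM in KO and 55.0 and 56.4 RPKM in WT, and mt-Co2 at 50.4 and 59.5 RPKM in KO and 89.1 and 85.2 RPKM in WT. These sums remained under every value of the 7 other protein genes. The log2 changes of the sums were -0.76 for mt-Co3, -0.66 for mt-Co2, -0.52 for mt-Atp6, -0.08 for mt-Nd3 and -0.17 for mt-Nd4l, and none passed the test (smallest limma adjusted p = 0.124). How reads that match both places were assigned was not given in the sources used here, so the levels and changes of these 5 genes are uncertain, and the part of read assignment in them was not tested.

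**Figure D4:**
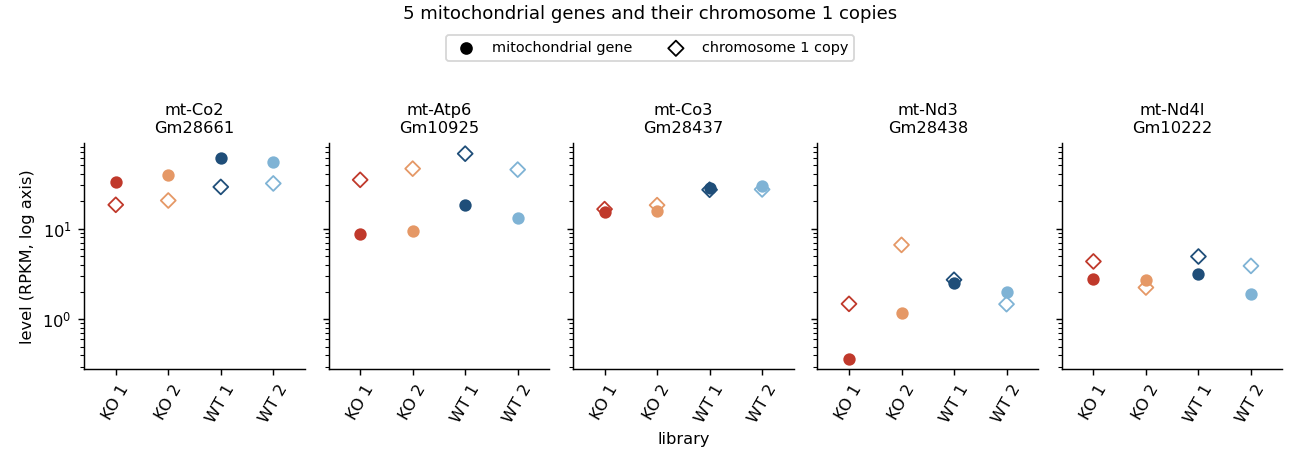
RPKM (log axis) of 5 mitochondrial genes (filled circles) and their chromosome 1 copies (open diamonds) in KO and WT libraries, 1 point each per library. For mt-Co2 and mt-Co3 gene and copy are both lower in the 2 KO libraries than in the 2 WT libraries; for mt-Atp6 the copy lies above the gene in all 4.

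Beyond chromosome 1, Gm13340 on chromosome 2 matches mt-Co1 over its whole length at 97.6% identity, and it had 1.73 and 3.14 RPKM in KO and 3.55 and 2.37 RPKM in WT. The copies of mt-Co2 and mt-Nd2 beside it, Gm13341 and Gm13339, had between 0 and 5 reads per library.

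The rRNAs of the mitochondrial ribosome had values far below those of the main mRNAs and did not separate the genotypes. RNAs listed in classes that mostly lack a poly(A) tail were mostly low too (19 with values, median mean level 0.209 RPKM, highest 64.6 RPKM). The highest was the histone gene Hist1h2bc. Whether each of these RNAs lacked a tail in these cells was not tested. The part of library preparation in the levels of the rRNAs and listed RNAs was not tested, so the levels need not give the amounts in the cells. The small-subunit rRNA mt-Rnr1 (chrM:70-1024) had 101 and 178 RPKM in KO and 129 and 99.8 RPKM in WT (log2 change 0.23 ± 0.29, limma adjusted p = 0.79). The large-subunit rRNA mt-Rnr2 (chrM:1094-2675) had 147 and 171 RPKM in KO and 189.5 and 151 RPKM in WT (log2 change -0.10 ± 0.15, limma adjusted p = 0.84). KO replicate 2 was the highest library for mt-Rnr1, and WT replicate 1 for mt-Rnr2. Summed, the rRNAs came to 0.00942 and 0.0104 times the protein genes in KO and 0.0121 and 0.00974 times in WT. On the log2 scale this ratio was lower by 0.13 in KO (exact permutation p = 0.667, 2-sided), and with 2 libraries against 2 no exact p can be under 0.33.

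The proline tRNA mt-Tp, which reads proline codons in the mitochondrion and lies on the strand of mt-Nd6, had 849 and 1453 RPKM in KO, from 893 and 1924 reads, and 1080.0 and 959 RPKM in WT, from 1002 and 1016 reads. KO replicate 1 was the lowest library and KO replicate 2 the highest (log2 change 0.13 ± 0.28, limma adjusted p = 0.889). It is 67 bases long, and reads that run past its ends may have been counted to it. Its ratio to the protein genes was 0.0323 and 0.0436 in KO and 0.0410 and 0.0373 in WT (log2 difference -0.06, exact permutation p = 1, 2-sided). The balance of the strands, mt-Nd6 over the mean of the 11 protein genes of the other strand, was 0.320 and 0.302 in KO and 0.309 and 0.282 in WT (log2 difference 0.07, exact permutation p = 0.667, 2-sided).

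Together the 15 genes took 3.53% and 4.52% of the reads in KO libraries and 3.58% and 3.48% in WT libraries. The mean share was 4.03% ± 0.694 in KO and 3.53% ± 0.0663 in WT (SD, n = 2 each; exact permutation p = 0.667, 2-sided). The difference was 0.497 percentage points, and 0.00613 without KO replicate 2. KO replicate 2 alone lay apart, and KO replicate 1 lay between the WT libraries. In RNA from bulk cells, fewer cells of a type and less RNA per cell cannot be told apart.

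The nuclear genes that build the same complexes centred near 0 in their change. Over 4 libraries the nuclear subunits of complex I had mean levels of up to 150 RPKM (median 31.0), those of complex IV up to 607 RPKM (median 49.1), those of complex III up to 137 RPKM and those of complex V up to 258 RPKM (median 30.8). These maxima lay under the 7 mitochondrial protein genes without a full-length chromosome 1 copy. In every library mt-Atp6, mt-Nd3, mt-Nd4l and mt-Co3 lay under the nuclear medians of their complexes. By mean mt-Co2 (46.5 RPKM) did too, though its WT values (60.5 and 54.0 RPKM) lay above that median. The median log2 change was 0.02 for complex I (36 tested), 0.09 for complex II (4 tested), -0.00 for complex III (9 tested), 0.00 for complex IV (15 tested) and 0.01 for complex V (15 tested), and 0 members passed the test over all genes. In complex I, 21 genes were higher and 15 lower. Its subunit Ndufc2 had 64.9 and 65.2 RPKM in KO and 53.5 and 43.5 RPKM in WT (limma adjusted p = 0.325), and Ndufb8 26.0 and 29.6 RPKM in KO and 22.1 and 23.9 RPKM in WT. In complex III, the iron-sulfur protein Uqcrfs1 had 63.2 and 57.1 RPKM in KO and 73.5 and 74.8 RPKM in WT (limma adjusted p = 0.344), and cytochrome c1, Cyc1, 83.5 and 80.4 RPKM in KO and 95.0 and 93.9 RPKM in WT. The complex II subunit Sdhb had 42.7 and 48.1 RPKM in KO and 37.1 and 41.4 RPKM in WT.

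Genes that copy, transcribe and process the mitochondrial genome likewise gave 0 calls. Of 11 tested transcription genes 6 were higher and 5 lower (median log2 change 0.04). Mrpl12, a ribosomal protein that also binds the mitochondrial RNA polymerase, had 7.11 and 7.93 RPKM in KO and 8.96 and 9.70 RPKM in WT, and Tfb1m, which methylates the small rRNA, 3.75 and 3.93 RPKM in KO and 4.73 and 4.24 RPKM in WT. Of 16 replication and nucleotide genes 7 were higher and 9 lower (median -0.02), among them the nuclease Endog at 2.88 and 2.33 RPKM in KO and 3.26 and 3.81 RPKM in WT, and the thymidine kinase Tk2 at 11.2 and 9.89 RPKM in KO and 8.80 and 8.94 RPKM in WT. Of 21 RNA processing genes 9 were higher and 12 lower (median -0.01). Hsd17b10, a subunit of the RNase P that cuts mitochondrial tRNAs from the precursor and also a dehydrogenase, had 116 and 143 RPKM in KO and 95.9 and 102 RPKM in WT (log2 change 0.37 ± 0.13, limma adjusted p = 0.384).

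The synthetases that charge mitochondrial tRNAs lay lower in 15 of 22 cases, where 53.8% of all genes tested did (median log2 change -0.06, 0 called). In 11 of the 22 both KO libraries lay below both WT libraries, where 25.0% of all genes did. Gars, the glycyl synthetase shared with the cytosol, had 35.0 and 34.6 RPKM in KO and 44.2 and 42.9 RPKM in WT (log2 change -0.31 ± 0.08, limma adjusted p = 0.282). The mitochondrial tyrosyl enzyme Yars2 had 3.74 and 4.45 RPKM in KO and 5.69 and 5.62 RPKM in WT, and the leucyl enzyme Lars2 3.36 and 3.38 RPKM in KO and 4.15 and 4.19 RPKM in WT. These 3 are among the 11. Enzymes that modify mitochondrial tRNA and rRNA had a median log2 change of -0.00, with 10 of 21 higher. Among them, the rRNA methylase Mrm1 had 3.89 and 3.19 RPKM in KO and 4.51 and 4.78 RPKM in WT, and the RNA cytosine methylase Nsun2 15.1 and 14.0 RPKM in KO and 16.9 and 17.0 RPKM in WT. Nsun4, which methylates the small rRNA, had 3.89 and 4.20 RPKM in KO and 3.48 and 2.88 RPKM in WT.

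Markers of mitochondrial mass were lower in 16 of 18 cases, where 53.8% of all genes tested were, with a median log2 change of -0.12 and 0 calls. The outer membrane channel Vdac2 had 45.3 and 46.7 RPKM in KO and 54.0 and 53.5 RPKM in WT (limma adjusted p = 0.387). The import channel Tomm40 had 8.84 and 7.75 RPKM in KO and 9.73 and 11.0 RPKM in WT, and cytochrome c, Cycs, 23.1 and 22.7 RPKM in KO and 26.7 and 26.0 RPKM in WT. Summed over the list the level was 1079.6 and 1036 RPKM in KO and 1168 and 1165 RPKM in WT. The regulators of mitochondrial biogenesis were mixed (5 of 11 higher, median -0.01). Ppara, a nuclear receptor for fatty acids, stood at 4.82 and 4.62 RPKM in KO and 2.92 and 3.16 RPKM in WT (log2 change 0.50 ± 0.09, limma adjusted p = 0.206), and the coactivator Pprc1 7.11 and 6.32 RPKM in KO and 8.27 and 8.16 RPKM in WT. Of 10 mitophagy genes 6 were higher, and the receptor Bnip3l had 36.9 and 37.0 RPKM in KO and 31.1 and 32.6 RPKM in WT.

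**Figure D5:**
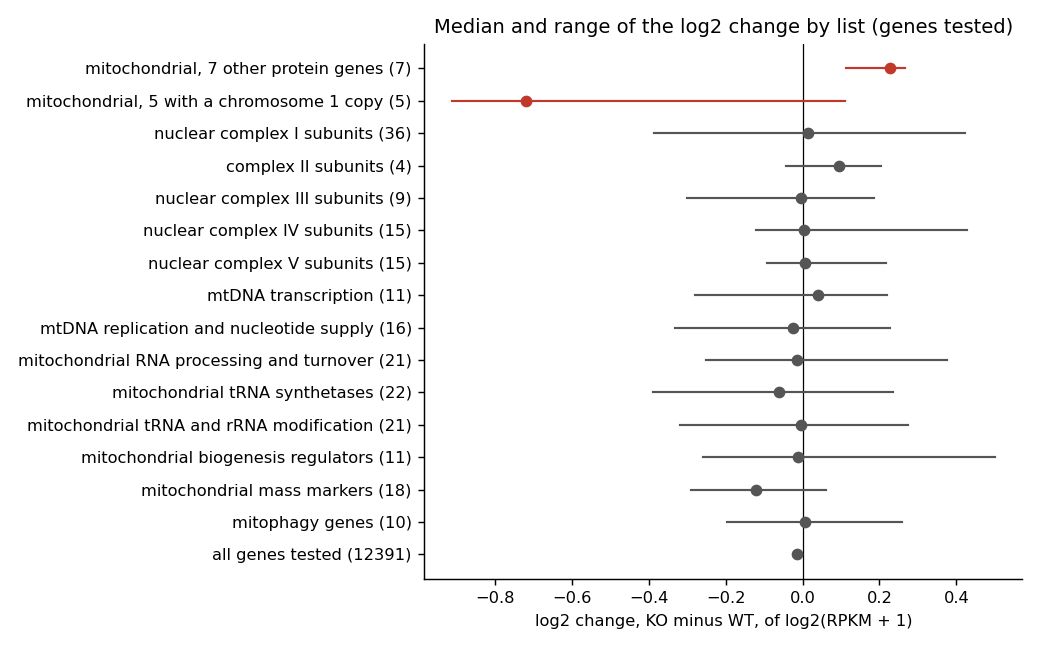
Median (points) and range from the lowest to the highest member (lines) of the log2 change, KO minus WT, for 2 sets of mitochondrially encoded genes (red) and 13 lists of nuclear genes (grey), with the number of genes tested in brackets; for all genes tested the median alone is shown. The 5 genes with a chromosome 1 copy have a median of -0.72 and the other 7 one of 0.23, while the medians of the nuclear lists lie between -0.12 and 0.09.

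Markers of other cells and of tissue handling were set beside these values, and in both KO libraries those of endothelial and myoid cells summed lower, and those of germ cells higher, than in both WT libraries. The 8 endothelial markers summed to 13.6 and 10.9 RPKM in KO and 20.9 and 23.6 RPKM in WT, and the 7 myoid and smooth muscle markers to 201 and 181 RPKM in KO and 225 and 255 RPKM in WT. Most of the myoid sum was Acta2 (181 and 165 RPKM in KO, 205 and 233 RPKM in WT), and Mylk had 12.7 and 9.95 RPKM in KO and 9.01 and 9.15 RPKM in WT. Of the macrophage markers 9 of 9 were lower by mean, where 53.8% of all genes tested were. Macrophage markers summed to 230.5 and 343 RPKM in KO and 432 and 329 RPKM in WT. Fibroblast markers summed to 289.8 and 230.5 RPKM in KO and 288 and 323 RPKM in WT. The 8 Sertoli cell markers with values summed to 810.1 and 654 RPKM in KO and 696 and 846 RPKM in WT, nearly all from Clu. The 11 germ cell markers with values summed to 15.9 and 13.1 RPKM in KO and 10.5 and 11.0 RPKM in WT. Most of this sum was Zbtb16, at 11.6 and 9.03 RPKM in KO and 7.64 and 8.90 RPKM in WT. The other tested germ cell markers were Dazl, at 1.06 and 1.01 RPKM in KO and 0.319 and 0.215 RPKM in WT, and Prm1, at 1.22 and 1.08 RPKM in KO and 0.308 and 0.404 RPKM in WT. In these 3 both KO libraries lay above both WT libraries, where 19.7% of all genes did. The remaining germ cell markers were under 1 RPKM in every library and went both ways by mean. Lower in KO were Ddx4 (0.296 and 0.218 RPKM in KO, 0.503 and 0.294 RPKM in WT) and Tnp2 (0.348 and 0.553 RPKM in KO, 0.395 and 0.921 RPKM in WT). Acrv1 was at 0 in both KO libraries and at 0.0198 and 0 RPKM in WT. Higher in KO were Sycp3, Sycp1, Prm2, Ldhc and Pgk2. The 5 erythroid markers summed to 3.78 and 3.16 RPKM in KO and 4.12 and 2.79 RPKM in WT. Immediate early and heat shock genes, which rise when tissue is dissociated, were lower in 22 of 23 cases (median log2 change -0.29). Of all genes tested 53.8% were lower. In 19 of the 23 both KO libraries lay below both WT libraries, where 25.0% of all genes did, and 0 passed the test. The list summed to 1039.7 and 1027.8 RPKM in KO and 1310.1 and 1273.8 RPKM in WT. The part of these cells and of handling in the mitochondrial values was not tested.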

How the data were processed

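RNA sequencing values of 4 libraries (2 KO, 2 WT) were used. The deposited values carry no unit in their header and were taken as RPKM made by the authors: times the gene's exonic length in GENCODE M21, 90.4% to 90.7% of values above 0 were whole multiples (within 0.01 reads) of what 1 read is worth in that library, which gave the read totals. Per the submitters' processing notes the build was mm9. The aligner, counter and annotation were not given in the sources used here. Of 27357 IDs, 27306 matched a symbol in GENCODE M21 (GRCm38), from which coordinates and sequences were taken.

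Of the genes, 12391 reached 1 RPKM in 2 or more libraries and were compared with limma 3.58.1 in R 4.3.3 (log2(RPKM + 1), genotype alone, empirical Bayes with trend, 2-sided, Benjamini-Hochberg FDR of 0.05 over all genes; 2 residual and 3.08 prior degrees of freedom), and all 15 members passed the filter. The fit was tested on simulated data. Single values per library were compared by exact permutation. Copies were searched with BLAST 2.17.0. Python 3.11.15 with SciPy 1.17.1, pandas 2.3.3 and Matplotlib 3.10.9 served for the rest. Pairs of libraries differed beyond sampling noise in all cases (mean chi-square per gene 30.3 within KO and 5.64 within WT). For pairs of a KO and a WT library it ran from 17.4 to 29.8. By this measure the KO libraries were no more alike than KO and WT libraries were.

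The members, lists and alternatives were chosen with earlier results of these data known. From each nuclear list up to 3 genes with the smallest p were eligible to be named, and those printed were picked among them with their values in view. Alternatives were quantile and trimmed-mean scaling, scaling to reads outside the mitochondrial genome, other filters, a pseudocount of 0.1, no trend, voom on recovered reads, each library left out, and a replicate block; summing genes with their copies was chosen after the data were seen.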

Additional observations from a re-analysis of the deposited data

How the results depend on the processing

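Over all genes the number called at a limma FDR of 0.05 was 0 under every scaling, filter, pseudocount and voom alternative, and between 0 and 306 with 1 library left out; 306 were called without KO replicate 1 and 139 without KO replicate 2. Among the 15 members between 0 and 2 were called with 1 library left out, and 0 under the other alternatives. The 3 calls were mt-Co3 in both fits without a KO library and mt-Co2 without KO replicate 2. The nuclear lists gave 0 calls throughout. With 1 library left out the log2 change ran from -0.17 to 0.64 for mt-Rnr1, -0.26 to 0.069 for mt-Rnr2, -0.030 to 0.33 for mt-Co1, -0.020 to 0.42 for mt-Nd4, -0.15 to 0.37 for mt-Nd4l, -0.26 to 0.51 for mt-Tp, -0.026 to 0.23 for Sdhc and -0.25 to 0.0079 for Cox5a, so that their directions rest on single libraries. The log2 ratio of rRNA to mRNA ran from -0.29 to 0.0255, KO minus WT, and that of tRNA to mRNA from -0.27 to 0.16. Summed with its copy, mt-Nd4l had -0.17. The causes of these reversals were not tested. Of 198 values of the members under the alternatives, 187 were counted as keeping direction and side of the threshold. These include mt-Co1 and mt-Nd2 under quantile normalization, whose change was fixed at 0 in advance and has no direction. A replicate block from the number of the library gave 0 calls, and at an unadjusted p under 0.05 it had 429 genes higher and 664 lower. Libraries of the same number deviated from their group means with r = -0.096. With 2 libraries per group this cannot show whether they share a batch. In both groups the title of replicate 2 carries a suffix that the title of replicate 1 lacks, and its meaning was not given in the sources used here. Depth limits mt-Nd3 and mt-Nd4l, with 2 to 16 reads per library.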

Other observations

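The listed RNA classes that mostly lack a poly(A) tail had 3 tested genes among 19 with values. Of these, the polymerase III transcript Rn7sk (7SK) had 0.192 and 1.07 RPKM in KO and 9.38 and 7.26 RPKM in WT. Its log2 change was -2.56 ± 0.29 (limma adjusted p = 0.124). Both KO libraries lay below both WT libraries, where 25.0% of all genes tested did. The KO values of Rn7sk rest on few reads, so the size of its change is uncertain. The histone gene Hist1h2bc had 65.8 and 69.0 RPKM in KO and 61.8 and 61.9 RPKM in WT, and Hist1h4i 0.614 and 1.11 RPKM in KO and 1.09 and 0.435 RPKM in WT. The mitochondrial rRNAs, given above, overlapped between the genotypes.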
